A study of Mus musculus with 6 samples.

Results

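The genes described here serve the uptake and oxidation of fatty acids in muscle: 31 genes, picked by name from the pathway, out of 43074 gene names in the tables of the series. All 31 were found in each table and all 31 passed the filter on low values, so none was lost before the test. They were grouped by role into uptake, binding and activation, the carnitine shuttle, acyl-CoA dehydrogenases, later steps of beta-oxidation, the electron transfer flavoprotein, a group of Ucp3, Acot2 and Mlycd, and the PPAR regulators.

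RNA came from mouse soleus, a postural hindlimb muscle of slow and fast fibres. The 3 libraries of StarD7 mKO soleus carry a muscle knockout of Stard7, whose product carries phosphatidylcholine to mitochondria, and the 3 libraries of WT soleus are the controls. The series text gives 3 mice per group, but the labels do not tie a library to a mouse, so p-values measure the spread between these samples. Age, sex, strain, feeding state and the promoter that drives the deletion are not given in the sources used here.

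In muscle, long-chain fatty acids are freed from circulating lipoproteins, taken up by carriers, bound by a cytosolic protein and joined to coenzyme A. Carnitine palmitoyltransferases pass the acyl group into mitochondria, where each round of beta-oxidation removes an acetyl unit and hands electrons to the respiratory chain. The PPAR nuclear receptors sense fatty acids and are known to raise many of these genes.

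The libraries held 42928382 to 51287715 recovered reads. Stard7 stood at 21.8, 21.3 and 34.6 TPM in mKO soleus, against 87.5, 95.4 and 94.99 TPM in WT soleus (log2 fold change −1.83, SE 0.16, adjusted p = 0.00585, limma), a call lost with no filter (adjusted p = 0.0858) and without WT replicate 2 (adjusted p = 0.0703). Mitochondrially encoded genes took 46.9% to 48.9% of TPM in mKO and 42.1% to 45.1% in WT, and with a fixed sum this leaves less TPM for nuclear genes in mKO. Of 11 fast fibre markers 4 were called lower and 0 higher (summed TPM 28552 to 37519 in mKO, 46000 to 53941 in WT). All 11 had a log2 fold change below 0. For 10 of them every mKO library was lower than every WT library, which holds for 10.3% of all genes tested. Of 9 slow fibre markers 0 were called (18806 to 26989 in mKO, 17401 to 22768 in WT). Their log2 fold changes were above 0 for 8 of 9, and the groups overlapped for all 9. Of the adipocyte and endothelial markers, 7 each, 0 were called, with sums of 234 to 302 and 223 to 228 TPM in mKO and of 226 to 404 and 233 to 238 TPM in WT. The 7 adipocyte markers all had a log2 fold change below 0 (55.1% of all genes tested), and their groups overlapped. Of the 7 endothelial markers 4 were below 0. For 2 of the 7, Cdh5 and Tie1, every mKO library was lower than every WT library, and so was the endothelial sum. Of the 2 brown adipocyte markers Ucp1 was listed at 0 in 5 of 6 libraries, while Cidea was at 7.13 to 15.8 TPM in mKO and 7.58 to 9.73 TPM in WT. Of the 2 heart markers Nppa was listed at 0 in every library, while Myh6 was at 7.29 to 10.3 TPM in mKO and 6.61 to 7.73 TPM in WT. The slow myosin gene Myh7 was high in every library, at 2889 to 4281 TPM in mKO and 2688 to 3532 TPM in WT.

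No gene of fatty acid uptake or oxidation was called in mKO soleus. Limma called 0 of 31, against 0.520% of the 12301 genes tested, and the lowest adjusted p was 0.160, for Crat. At that share 0 is the likely count for a list of this size, here and in each role below. At an unadjusted p under 0.05 the count was 6 of 31, against 10.7% of all genes tested, and by limma-voom 0 were called and 5 had an unadjusted p under 0.05. The mKO mean lay within 10% of the WT mean for 25 of 31 genes, and for 67.9% of all genes tested. The exceptions were Slc27a4 above, and Acsl6, Crat, Ucp3, Mlycd and Ppara below. All 31 of the 95% intervals lay between −1 and 1 on the log2 scale, and 29 of 31 between −0.5 and 0.5. The wide intervals were those of Ucp3 and Ppara.

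The median log2 fold change of the 31 genes was −0.04, and that of all genes tested was −0.01, with 20 of 31 below 0 (55.1% of all genes tested). When the mitochondrially encoded genes were dropped and TPM was rescaled, the medians were 0.08 and 0.09, and 9 of 31 lay below 0. That scaling moved the median of all genes by 0.11, so a value given with those genes left out is to be read against 0.09 and not against 0. The direction of the group as a whole changed with the scaling, while the group stayed close to the median of all genes in both. Groups of libraries did not overlap for 6 of 31 genes (19.4%), against 16.0% of all genes tested. Every mKO library was lower than every WT library for 5 of them, Acsl6, Crat, Acadvl, Etfb and Mlycd, where this holds for 10.3% of all genes. Every mKO library was higher for 1, Slc27a4, where this holds for 5.67% of all genes. These 6 are also the genes with an unadjusted p under 0.05. Each kept its sign in all 15 other settings, which says little about them. Groups that do not overlap keep their sign with any library left out, or when another value is added to TPM. In bulk muscle, fewer cells of a type and less RNA per cell cannot be told apart.

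**Figure D1:**
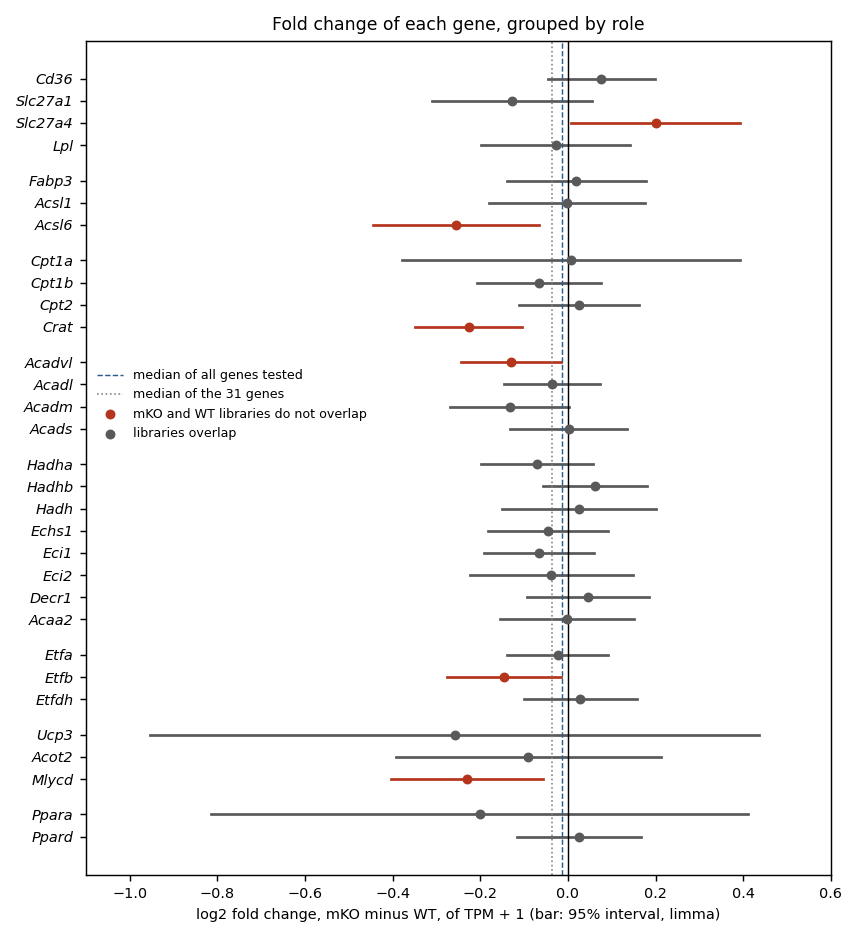
Log2 fold change of TPM + 1, mKO minus WT, for each of the 31 genes, with the 95% interval of limma as a bar and genes grouped by role from uptake at the top to the PPAR regulators at the bottom. All intervals lie between −1 and 1, and red marks the 6 genes whose mKO and WT libraries do not overlap.

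TPM is a level per length, so genes can be compared only as far as the length used is right. That length joined all annotated exons of a gene, 823 bases for Fabp3 and 10478 for Lpl, and may exceed that of the RNA made. By TPM, Fabp3 stood first by far, with a mean of 3699 TPM over 6 libraries, followed by Acadl (634 TPM), Lpl (589 TPM) and Cd36 (534 TPM). By recovered reads Lpl (112996 to 139084 per library) stood above Fabp3 (55425 to 70103). At the other end stood Slc27a4 (7.77 TPM), Cpt1a (4.59 TPM) and Acsl6 (3.70 TPM). In every library 17 of the 31 genes were at 100 TPM or more. Summed over the 31, the level was 10457, 10134 and 9320 TPM in mKO replicates 1, 2 and 3, and 10027, 10263 and 10091 TPM in WT replicates 1, 2 and 3. The groups overlapped, and mKO replicate 3 was the lowest of the 6. Recovered reads per gene and library ran from 546 for Cpt1a to 139084 for Lpl, so that counting error, relative to the level, is largest for the 3 rare genes. Of these only Cpt1a had a high residual SD. A residual SD no larger was found in 92% of all genes tested for Cpt1a, 43.9% for Slc27a4 and 19.6% for Acsl6. These SDs are of log2(TPM + 1), and the added 1 narrows them most for genes at low TPM.

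**Figure D2:**
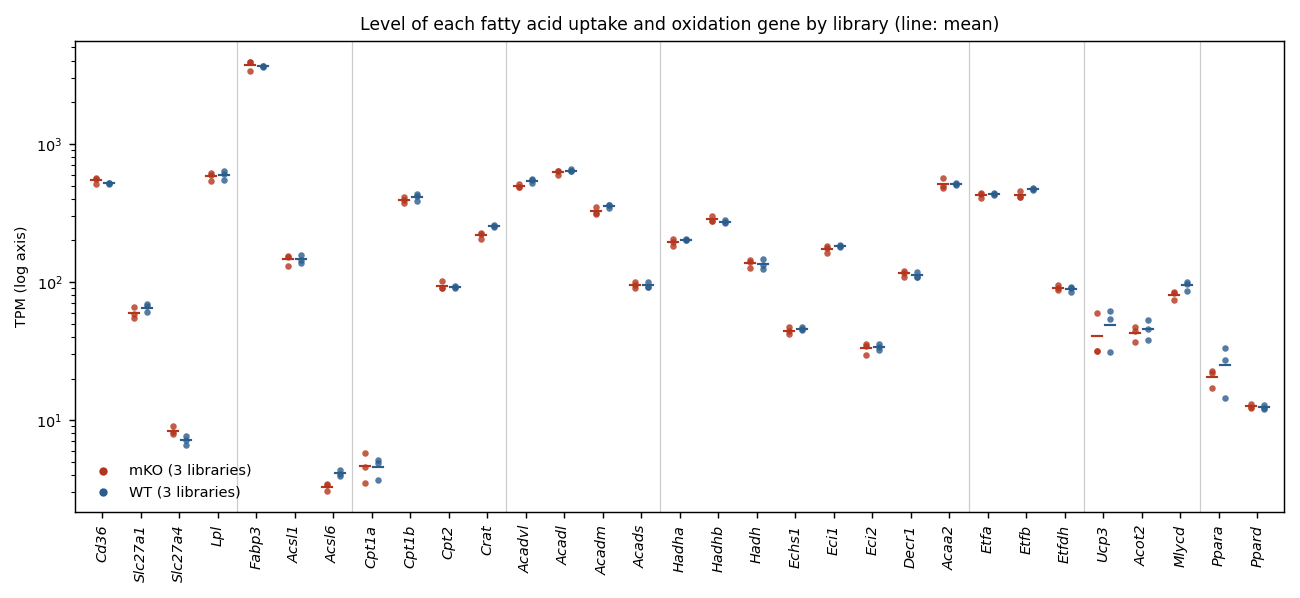
TPM on a log axis for each gene in the 3 mKO (red) and 3 WT (blue) libraries, with the group mean as a line and grey lines between the roles. Levels span from Acsl6 at a mean of 3.70 TPM to Fabp3 at 3699 TPM, and for most genes the points of the groups lie on each other.

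Of the uptake genes 0 of 4 were called, with 2 below 0 and 2 above. Slc27a4, which encodes the fatty acid transport protein FATP4, a carrier that also activates very long chains, was at 7.88, 9.13 and 8.14 TPM in mKO and at 6.64, 7.69 and 7.17 TPM in WT. Every mKO library lay above every WT library, by a small margin (log2 fold change 0.20, SE 0.08, 95% interval 0.01 to 0.39, adjusted p = 0.452, limma). Its value was 0.32 with mitochondrially encoded genes left out (adjusted p = 0.133, limma). That p tests against 0, while the median of all genes was 0.09 in this setting. Slc27a1, the related carrier FATP1 of muscle and fat, was at 65.4, 59.0 and 54.9 TPM in mKO and at 66.5, 68.9 and 60.3 TPM in WT. Its groups overlapped (−0.13, SE 0.08, adjusted p = 0.640), and the value was −0.07 without mKO replicate 3 and −0.19 without mKO replicate 1. Cd36, the main fatty acid translocase of the muscle membrane, averaged 548 ± 30.3 TPM in mKO and 519 ± 4.78 TPM in WT (SD, n = 3 each). Lpl, the lipase that frees fatty acids from lipoproteins at the capillary wall, averaged 583 ± 40.4 TPM in mKO and 595 ± 44.3 TPM in WT. Neither differed beyond the spread between libraries (0.08 and −0.03 on the log2 scale, adjusted p = 0.678 and 0.937). Both are also made in fat cells, and Cd36 in capillary endothelium. The marker sums of those cells are given above, and their part in these values was not tested.

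Fabp3, Acsl1 and Acsl6 bind and activate fatty acids, and 0 of 3 were called. Fabp3, the heart and muscle fatty acid binding protein, was at 3905, 3913 and 3366 TPM in mKO and at 3683, 3686 and 3639 TPM in WT. The WT libraries lay close together, with the mKO libraries on both sides of them (log2 fold change 0.02, 95% interval −0.14 to 0.18, adjusted p = 0.953). Acsl1, the main long-chain acyl-CoA synthetase of muscle, averaged 146 ± 12.5 TPM in mKO and 146 ± 9.52 TPM in WT (95% interval −0.18 to 0.18). Acsl6, a synthetase best known from brain, was at 3.37, 3.08 and 3.42 TPM in mKO and at 4.38, 4.07 and 3.91 TPM in WT. All mKO libraries were lower, and the mKO mean was 79.8% of the WT mean, the only gene of the 31 that differed by more than 20% (−0.26, SE 0.08, 95% interval −0.44 to −0.07, adjusted p = 0.304). The percent is of TPM and the log2 value of TPM + 1, which is smaller at so low a level. That value was −0.32 with 0.1 added in place of 1, and −0.14 with 5 added. Acsl6 is also the lowest of the 31 by mean TPM, with 665 to 1005 recovered reads per library.

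A promoter window of Acsl6 is shown because it is 1 of only 2 windows among these genes with a pair of nuclear receptor half-sites. It is taken from RefSeq on GRCm38.p6, an older build than that of the tables, at chr11:54303574-54303873 on the plus strand, printed 5′ to 3′, and capitals mark the half-site AGGTCA read on the opposite strand. It covers 250 bases before to 50 bases after 1 of the starts of the gene.

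Acsl6 promoter: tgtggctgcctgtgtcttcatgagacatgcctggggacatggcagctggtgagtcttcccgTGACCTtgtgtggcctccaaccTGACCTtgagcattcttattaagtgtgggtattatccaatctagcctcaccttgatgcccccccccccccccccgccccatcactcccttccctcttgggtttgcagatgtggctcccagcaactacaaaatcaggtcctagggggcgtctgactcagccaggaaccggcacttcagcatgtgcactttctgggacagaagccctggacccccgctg

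AGGTCA is the letter pattern that PPAR, RXR and many other nuclear receptors bind, and it was searched on both strands. Windows were matched by symbol for 26 of the 31 genes, 31 windows in all, of which 7 (22.6%) hold at least 1 half-site. At least 1 stands in 16.3% of the 32851 windows for all genes, and 1.81% hold 2 or more. Those 7 windows belong to Cd36, Acsl6, Cpt1a, Acadvl, Acadm, Echs1 and Ucp3. The full pattern AGGTCANAGGTCA, the classical PPAR element, stands in 13 of the 32851 windows and in 0 of the 31, which says only that these letters are not in these windows.

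In the carnitine shuttle 0 of 4 genes were called, and Crat had the lowest unadjusted p of all 31 genes. Crat encodes carnitine acetyltransferase, which moves acetyl groups between coenzyme A and carnitine and so buffers acetyl-CoA in mitochondria. Its level was 222, 205 and 228 TPM in mKO and 250.9, 259 and 256 TPM in WT. All mKO libraries were lower, with a gap of 23 TPM between the groups, while the WT libraries stayed within 8.1 TPM of each other. The log2 fold change was −0.23 (SE 0.05, 95% interval −0.35 to −0.10, unadjusted p = 0.00283, adjusted p = 0.160, limma). It ranged from −0.26 to −0.11 over the other settings, with adjusted p from 0.136 to 0.537, and −0.11 was its value with mitochondrially encoded genes left out. Cpt1b, the muscle form of the rate-limiting carnitine palmitoyltransferase, was at 415, 396 and 373 TPM in mKO and at 389, 431 and 421 TPM in WT. Its groups overlapped (−0.07, SE 0.06, 95% interval −0.21 to 0.07, adjusted p = 0.771). Cpt2, the transferase of the inner membrane, averaged 94.2 ± 6.47 TPM in mKO and 92.4 ± 1.46 TPM in WT. Cpt1a, the liver form, averaged 4.63 ± 1.17 TPM in mKO and 4.56 ± 0.786 TPM in WT. The ratio of Cpt1a to Cpt1b was 0.0084, 0.0147 and 0.0123 in mKO and 0.0125, 0.0119 and 0.0087 in WT, so the muscle form made up nearly all of the pair in both groups (exact two-sided permutation p = 0.9, also after adjustment over the 3 ratios computed).

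Acyl-CoA dehydrogenases catalyse the first step of each round of beta-oxidation, each for its own chain lengths, and 0 of 4 were called. Acadvl, for very long chains, was at 515, 485 and 490 TPM in mKO and at 525, 544 and 562 TPM in WT. All mKO libraries were lower, by 9.9 TPM at the nearest pair (log2 fold change −0.13, SE 0.05, 95% interval −0.24 to −0.02, adjusted p = 0.397). Acadm, for medium chains, was at 349, 308 and 317 TPM in mKO and at 363, 361 and 343 TPM in WT. Its groups overlapped through mKO replicate 1 (−0.13, SE 0.06, 95% interval −0.27 to 0.00, adjusted p = 0.473). With mitochondrially encoded genes left out the values were −0.01 for Acadvl and −0.02 for Acadm, where the median of all genes was 0.09. Acadl, for long chains, averaged 626 ± 22.1 TPM in mKO and 642 ± 10.1 TPM in WT. Acads, for short chains, averaged 94.99 ± 4.70 TPM in mKO and 94.9 ± 4.12 TPM in WT. These last 2 had log2 fold changes of −0.04 and 0.00.

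Of the 8 genes of the later steps and of the helper isomerases and reductase 0 were called, and their log2 fold changes lay between −0.07 and 0.06. Hadha and Hadhb encode the alpha and beta subunits of the mitochondrial trifunctional protein, which carries out the later steps on long chains. Hadha was at 204, 181 and 195 TPM in mKO and at 200, 203 and 206 TPM in WT (−0.07, SE 0.06, adjusted p = 0.723). Hadhb averaged 285 ± 13.9 TPM in mKO and 273 ± 5.68 TPM in WT (0.06, SE 0.05, adjusted p = 0.741). Each gene alone overlapped between the groups. Eci1, an isomerase that handles double bonds of unsaturated chains, was at 182, 178 and 164 TPM in mKO and at 187, 180 and 181 TPM in WT, which also overlapped (−0.07, SE 0.05, adjusted p = 0.730). Its relative Eci2 averaged 33.2 ± 3.27 TPM in mKO and 34.1 ± 1.65 TPM in WT. Decr1, the dienoyl-CoA reductase for the same chains, averaged 116 ± 5.76 TPM in mKO and 112 ± 5.97 TPM in WT. Echs1, the short-chain hydratase, averaged 44.4 ± 2.55 TPM in mKO and 45.9 ± 1.39 TPM in WT. For the next 2 steps, Hadh, the short-chain dehydrogenase, averaged 138 ± 9.16 TPM in mKO and 135 ± 11.4 TPM in WT, and Acaa2, a thiolase, averaged 513 ± 45.0 TPM in mKO and 512 ± 7.33 TPM in WT. The 8 intervals all lay between −0.5 and 0.5.

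Hadha and Hadhb lie head to head on chromosome 5, with starts 273 bases apart in RefSeq on GRCm38.p6, so their promoter windows are largely the same DNA. The Hadhb window, chr5:30155003-30155302 on the plus strand, is shown 5′ to 3′ because the pair shares it, and capitals mark the 228 bases that are also in the Hadha window on the opposite strand.

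Hadhb promoter: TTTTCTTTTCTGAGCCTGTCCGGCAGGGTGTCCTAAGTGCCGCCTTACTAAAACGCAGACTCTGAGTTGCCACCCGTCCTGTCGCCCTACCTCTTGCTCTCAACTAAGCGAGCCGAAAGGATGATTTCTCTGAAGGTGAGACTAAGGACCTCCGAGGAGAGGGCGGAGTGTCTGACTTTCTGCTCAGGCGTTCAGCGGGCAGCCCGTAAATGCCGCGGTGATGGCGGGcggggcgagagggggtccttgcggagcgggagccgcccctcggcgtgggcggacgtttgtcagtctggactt

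The ratio of the subunits within a library does not depend on scaling. The ratio of Hadhb to Hadha was 1.47, 1.52 and 1.43 in mKO, against 1.40, 1.32 and 1.31 in WT. Every mKO library was above every WT library, a mean difference of 0.13 on the log2 scale. The exact two-sided permutation p was 0.1, the smallest that 3 against 3 can give, and 0.15 when adjusted over the 3 ratios computed. The difference ranged from 0.11 to 0.16 as each library was left out. The ratios were chosen after the values were seen.

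Etfa, Etfb and Etfdh take electrons from the dehydrogenases to ubiquinone, and 0 of 3 were called. Etfb, the beta subunit of the electron transfer flavoprotein, was at 460, 414 and 411 TPM in mKO and at 466, 483 and 472 TPM in WT. All mKO libraries were lower, but mKO replicate 1 lay only 6.4 TPM under the lowest WT library (log2 fold change −0.15, SE 0.06, 95% interval −0.28 to −0.02, adjusted p = 0.408). With mitochondrially encoded genes left out the value was −0.03. Etfdh, the ubiquinone oxidoreductase that receives the electrons, was at 95.4, 89.8 and 87.0 TPM in mKO and at 85.1, 90.3 and 91.4 TPM in WT, and overlapped (0.03, adjusted p = 0.909). Etfa, the alpha subunit, averaged 427 ± 18.1 TPM in mKO and 433 ± 8.28 TPM in WT. The subunits form a pair in the protein, and their ratio separated the groups too. Etfb to Etfa was 1.05, 0.955 and 1.01 in mKO, against 1.09, 1.09 and 1.09 in WT. The WT libraries were close to identical (SD 0.00176) and all mKO libraries were lower, with a log2 difference of −0.12 (exact permutation p = 0.1, adjusted p = 0.15 over the 3 ratios).

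**Figure D3:**
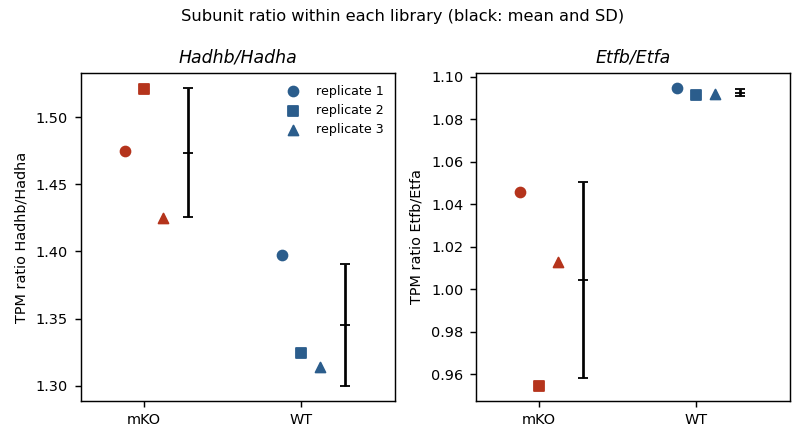
TPM ratio of Hadhb to Hadha (left) and of Etfb to Etfa (right) in each mKO (red) and WT (blue) library, with marks for the replicates and the mean with SD in black; the axes do not start at 0. The first ratio is 1.43 to 1.52 in mKO and 1.31 to 1.40 in WT, and the second is 0.955 to 1.05 in mKO and 1.09 in each WT library.

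Ucp3, Acot2 and Mlycd act beside the main pathway, and 0 of 3 were called, all of them with values below 0. Mlycd encodes malonyl-CoA decarboxylase, which removes the inhibitor of the carnitine shuttle. Its level was 84.2, 83.1 and 74.5 TPM in mKO and 97.4, 100.8 and 86.3 TPM in WT. All mKO libraries were lower, 2.1 TPM apart at the nearest pair (log2 fold change −0.23, SE 0.08, 95% interval −0.40 to −0.06, adjusted p = 0.314), and the value was −0.11 with mitochondrially encoded genes left out. Its adjusted p ranged from 0.173, with a replicate block, to 0.732. Acot2, a mitochondrial thioesterase that frees fatty acids from coenzyme A, averaged 42.6 ± 5.47 TPM in mKO and 45.5 ± 7.45 TPM in WT (−0.09, adjusted p = 0.865). That value was 0.01 without mKO replicate 3, 0.02 without WT replicate 2, −0.17 without mKO replicate 1 and −0.21 without WT replicate 3. Acot2 and its neighbour Acot1 are near-identical, so reads could be counted to either and both values are uncertain.

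Ucp3, an uncoupling protein of skeletal muscle whose RNA is known to rise in fasting, had the largest residual SD of the 31 genes over both groups, although within WT Ppara spread more (2.28-fold, against 1.98-fold for Ucp3). It was at 31.6, 59.2 and 31.5 TPM in mKO replicates 1, 2 and 3 and at 53.8, 61.4 and 31.02 TPM in WT replicates 1, 2 and 3. Low libraries, at 31.02 to 31.6 TPM, occurred in both groups, and so did high ones, at 53.8 to 61.4 TPM. The log2 fold change was −0.26 (SE 0.30, 95% interval −0.95 to 0.44, adjusted p = 0.828), and 99.2% of all genes tested had a residual SD no larger than that of Ucp3, 0.51 on the log2 scale. Single libraries moved the value: it was −0.55 without mKO replicate 2 or without WT replicate 3, −0.11 without mKO replicate 1 or without mKO replicate 3, −0.16 without WT replicate 1 and −0.07 without WT replicate 2. Outside the 31 genes, Pdk4, which blocks pyruvate oxidation and is also raised by fasting, was at 787, 1190 and 753 TPM in mKO replicates 1, 2 and 3 and at 1023, 1235 and 537 TPM in WT replicates 1, 2 and 3. Angptl4, a lipase inhibitor and PPAR target, was at 2.99, 7.72 and 4.05 TPM in mKO and at 7.11, 5.01 and 1.32 TPM in WT. For all 3 genes mKO replicate 2 was the highest of its group and WT replicate 3 the lowest of its group, places that these libraries also held most often over all genes tested (55.5% of genes were highest in mKO replicate 2 and 51.7% lowest in WT replicate 3). None differed between the groups beyond this spread (Pdk4 0.02, adjusted p = 0.993, and Angptl4 0.21, adjusted p = 0.917), and Pdk4 and Angptl4 were picked after their values were seen.

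The promoter window of Ucp3 is the other window with a pair of half-sites, and is shown for that reason. It lies at chr7:100472741-100473040 on the plus strand (RefSeq, GRCm38.p6), printed 5′ to 3′. Capitals mark AGGTCA, whose first bases lie 149 and 44 bases before the start.

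Ucp3 promoter: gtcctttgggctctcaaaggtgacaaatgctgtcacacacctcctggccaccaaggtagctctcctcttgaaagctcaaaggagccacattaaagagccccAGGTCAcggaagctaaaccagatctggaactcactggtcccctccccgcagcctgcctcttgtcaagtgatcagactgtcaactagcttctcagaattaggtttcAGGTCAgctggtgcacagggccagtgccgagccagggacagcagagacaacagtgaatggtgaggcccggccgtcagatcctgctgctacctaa

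PPAR regulators were not called. Ppara, the receptor best known for raising oxidation genes in liver, heart and muscle, was at 17.0, 21.9 and 22.8 TPM in mKO replicates 1, 2 and 3 and at 14.5, 27.3 and 33.0 TPM in WT replicates 1, 2 and 3. The WT libraries spread over a 2.28-fold range that encloses all mKO libraries (log2 fold change −0.20, SE 0.26, 95% interval −0.81 to 0.41, adjusted p = 0.851). Its order among the WT libraries was not that of Ucp3, since the library lowest for Ucp3 was the highest for Ppara. The value was 0.03 without WT replicate 3, −0.54 without WT replicate 1, −0.10 without WT replicate 2 and −0.08 without mKO replicate 1. Ppard, the form that prevails in many muscles, was at 12.3, 13.1 and 12.4 TPM in mKO and at 12.2, 12.1 and 12.8 TPM in WT, which overlapped (0.02, 95% interval −0.12 to 0.17, adjusted p = 0.928). By TPM, Ppard lay below Ppara in every library here, with exon lengths of 7514 bases for Ppard and 3836 for Ppara. By recovered reads the order was not the same. Ppard (1871 to 2144 per library) stood above Ppara (1286 to 2762) in every mKO library and in WT replicate 1. It stood below Ppara in WT replicates 2 and 3.

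**Figure D4:**
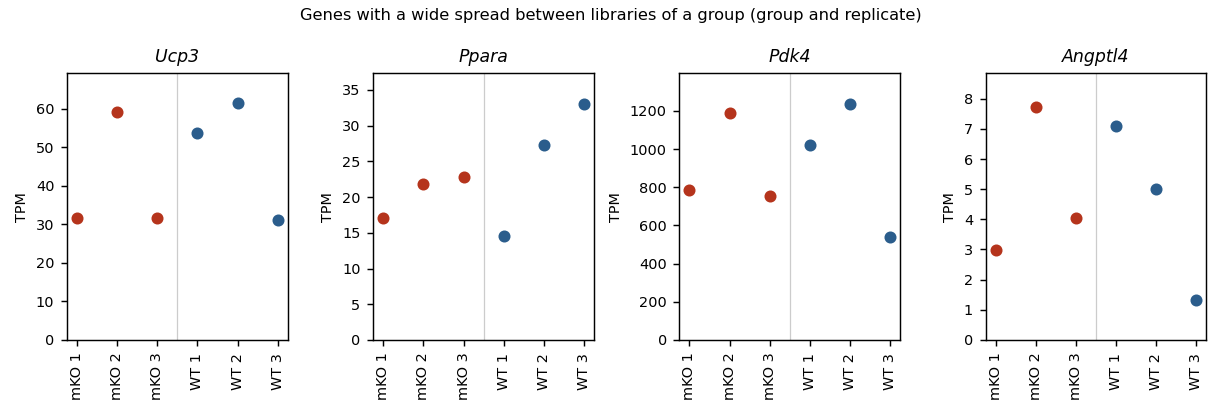
TPM of Ucp3, Ppara, Pdk4 and Angptl4 in each mKO (red, left) and WT (blue, right) library, each axis starting at 0. Ucp3, Pdk4 and Angptl4 are highest of the mKO group in replicate 2, as are 55.5% of all genes tested, and lowest of the WT group in replicate 3, as are 51.7%, while Ppara is highest of the WT group there at 33.0 TPM.

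Within the mKO group the 31 genes did not scatter evenly over the libraries. Replicate 3 was the lowest of the 3 for 20 of 31 genes, against 37.3% of all genes tested, and replicate 1 was the highest for 23 of 31, against 18.9% of all genes tested. Replicate 3 is also the mKO library with the highest TPM of fast fibre markers (37519, against 29659 and 28552 in replicates 1 and 2) and the lowest of slow fibre markers (18806, against 25912 and 26989). In the WT group replicate 1 was the lowest for 14 of 31 genes, against 29.8% of all genes tested, and replicate 2 the highest for 15 of 31, against 43.7%. There the marker sums ran the other way. WT replicate 1 had the highest TPM of slow fibre markers (22768, against 21210 and 17401 in WT replicates 2 and 3). It also had the lowest of fast fibre markers (46000, against 53941 and 50218). Slow fibres are known for a higher capacity to oxidise fat, and the part of the fibre markers in these values was not tested. Without mKO replicate 3 the median log2 fold change of the 31 genes was 0.00, and without mKO replicate 1 it was −0.07.

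The pathway was also followed in 46 other genes of fatty acid transport, peroxisomal oxidation, synthesis and control, of which 45 were tested and 0 were called in either direction. Of these, 8 of 45 had an unadjusted p under 0.05, 4 lower and 4 higher, against 10.7% of all genes tested, and 9 of 45 did not overlap between the groups, against 16.0%. Their median log2 fold change was −0.03. The largest changes were those of Acot1, Acsl3, Acaca, Acsl4 and Acad10. Acaca, the acetyl-CoA carboxylase that makes malonyl-CoA for fatty acid synthesis, was at 9.42, 9.02 and 9.78 TPM in mKO and at 8.20, 7.17 and 7.49 TPM in WT, with all mKO libraries higher (0.27, SE 0.07, adjusted p = 0.220). Acsl3, a synthetase linked to lipid droplets, was at 12.9, 13.1 and 9.67 TPM in mKO and at 9.57, 10.1 and 8.11 TPM in WT, which overlapped through mKO replicate 3 (0.32, SE 0.13, adjusted p = 0.412). Acsl4, a synthetase that prefers arachidonic acid, was lower in all mKO libraries, at 8.87, 8.46 and 9.96 TPM, than in WT, at 9.98, 11.3 and 11.6 TPM (−0.24, SE 0.09, adjusted p = 0.353). Acad10, a little-studied relative of the acyl-CoA dehydrogenases, was at 1.78, 1.69 and 1.74 TPM in mKO and at 1.93, 2.46 and 2.28 TPM in WT, with all mKO libraries lower (−0.23, SE 0.10, adjusted p = 0.458). Acot1, uncertain for the reason given for Acot2, had the largest value of the 45 (−0.41, SE 0.20, adjusted p = 0.551) at 2.89, 1.90 and 1.28 TPM in mKO and 3.22, 3.36 and 2.24 TPM in WT, which overlapped, and the value was −0.22 without mKO replicate 3.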

How the data were processed

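RNA of soleus was sequenced from 3 StarD7 mKO and 3 WT libraries (directional poly(A) kit, per the labels' protocols). The deposited unit is TPM, in 1 table for each library, which divides reads by gene length and fixes the sum within a library, so that a rise of very abundant genes lowers all other values. Reads were placed on GRCm39, per the submitters' processing notes, and no source used here names the aligner or counter.

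The labels gave groups and replicate numbers. Genes that reached 1 TPM in 3 or more libraries were fitted in R 4.3.3 by limma-trend (limma 3.58.1), with log2(TPM + 1) as the value and genotype as the term. P-values were adjusted by the Benjamini-Hochberg method over the 12301 genes tested, the threshold being 0.05, and intervals are unadjusted 95% intervals. The fit was tested on simulated data, with planted changes larger than that of any member. That test does not show how often changes of the members' size would be found. TPM multiplied by exon length in GENCODE M21 gave whole reads, within 0.05, for 93.13% of 22729 genes with a single matching name. These reads served for depth and for limma-voom, an alternative added after seeing the data. The design foresaw edgeR for raw counts, which was not used because the deposited unit is TPM.

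The members and lists were chosen with earlier results of these data known. Every member is named. Values of every library are given for the 2 members of each role with the largest absolute change and for those whose groups do not overlap. Of other genes of the pathway, the 5 with the largest change are given, since none passed the threshold. Other genes were picked after their values were seen, as were the ratios of paired genes. Alternatives were other pseudocounts, filters and scalings, a robust prior, a replicate block and each library left out.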

Additional observations from a re-analysis of the deposited data

How the results depend on the processing

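No fatty acid gene was called in any of the 15 other settings, by limma-trend or by limma-voom. Nor was any of the 45 other pathway genes called. Few genes were called in any setting, so 0 of 31 is a likely count for a list of this size. The lowest adjusted p of the 31 genes was 0.133 (Slc27a4, mitochondrially encoded genes left out, limma). That p tests against 0, where the median of all genes was 0.0932. Of all genes, 64 were called, 6 with no filter, 41 with mitochondrially encoded genes left out, 41 with median-of-ratios scaling and 4 to 94 with each library left out in turn. The cause was not tested. The median log2 fold change of the 31 genes, −0.04, was 0.0819 with mitochondrially encoded genes left out and 0.0159 by limma-voom, where that of all genes was 0.0932 and 0.0367, and −0.0708 to 0.00418 with each library left out. The count of genes whose groups do not overlap, 6, was 4 with median-of-ratios scaling (17.3% of all genes), 8 with mitochondrially encoded genes left out (26.6% of all genes) and 6 to 13 with each library left out, where fewer libraries overlap less often (22.7% to 27.9% of all genes). Stard7 lost its call with no filter (−1.83) and without WT replicate 2, and lay between −2.05 and −1.72 with each library left out. The log2 ratio of Etfb to Etfa, −0.12, was −0.152 to −0.0864 with each library left out, and that of Cpt1a to Cpt1b, 0.07, was −0.105 to 0.299 (both chosen after seeing the data). Of 540 values of single genes under other settings, 37 moved by more than the residual SD, 28 of them with mitochondrially encoded genes left out.

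With the replicate number as a replicate block, 21 genes were called and 0 of the 31. Deviations of same-numbered libraries correlated at 0.095, 0.0474 and 0.131, so the numbers were not taken to pair the samples, although each library correlated best with its own number. Recovered reads per gene of the 31 and library ran from 546 to 139084, and counting error, relative to the level, is largest for the rarest, Cpt1a, Acsl6 and Slc27a4.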
